A study of Homo sapiens with 6 samples.

Results

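The 10 genes described here encode proteins that myeloid cells pack into their primary (azurophil) granules or that travel with them: the serine proteases and their relative PRTN3, ELANE, AZU1 and CTSG, the peroxidase MPO, the lysozyme LYZ, the ribonucleases RNASE2 and RNASE3, the protease inhibitor CST7 and the granule proteoglycan SRGN. They were taken by symbol from the 18806 rows of the deposited expression table, and 10 of 10 were found and passed the filter on low values, which left 10911 genes. The cells were Mono-mac-6, a monocytic line from human acute myeloid leukaemia with the MLL-AF9 fusion. All groups came from 1 Cas9-expressing single clone, transduced with lentivirus carrying a guide RNA against the tRNA methyltransferase gene METTL1 (sgMETTL1.3 or sgMETTL1.6) or the control guide sgNS, kept in blasticidin at 10 µg/ml and hygromycin B at 200 µg/ml for 1 to 2 weeks, and harvested about 8 to 10 days after transduction. Each group had 2 libraries of poly(A)-selected RNA, 6 in all. The labels do not say whether the 2 libraries of a group came from separate cultures, and the p-values thus reflect a spread between libraries that could be purely technical.

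Primary granules form at the promyelocyte stage, when the genes of their cargo are switched on together under transcription factors such as PU.1 and the C/EBP family, and most of these genes are turned down again as the cell matures. The serine proteases are made as inactive precursors, are activated by the cysteine protease cathepsin C and are held in the granule on the sulphated chains of serglycin, the product of SRGN. Monocytic leukaemia cells commonly keep this cargo programme, and lysozyme and serglycin stay abundant in mature monocytes.

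Expression was given as TPM, a relative transcript level that is corrected for length and scaled to a common total; read numbers cannot be recovered from it, so depth is unknown and counting error cannot be stated. METTL1 itself had 18.3 and 16.6 TPM in the libraries labelled sgMETTL1.3, 11.2 and 11.7 TPM in the sgMETTL1.6 libraries and 15.4 and 13.9 TPM in the sgNS libraries. The libraries labelled sgMETTL1.3 thus stood above both controls for the targeted mRNA (log2 change 0.24, limma adjusted p = 0.011) and the sgMETTL1.6 libraries below them (-0.33, limma adjusted p = 0.0017). The first of these calls was lost without sgNS replicate 2, without sgMETTL1.3 replicate 1 or with no filter on low values (limma adjusted p = 0.116 in each), and with only the genes at 0 in every library left out (0.057). The second call, for sgMETTL1.6, was also lost with no filter on low values (limma adjusted p = 0.067). The 4 guide libraries did not separate from the 2 control libraries (exact two-sided permutation p = 0.933 over 15 splits, where the smallest one-sided p is 0.0667). A gene-level TPM does not read the small insertions and deletions that Cas9 leaves, and METTL1 protein was not analysed here, so every direction given for sgMETTL1.3 is that of the libraries with this label.

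Of 10 monocyte markers 6 passed the filter, with CD68, CD33 and FCGR1A the highest, while CD14 (0.22 to 0.90 TPM) and CSF1R (0.45 to 0.86 TPM) were under 1 TPM in every library. The monocyte list summed to 270.7 to 270.9 TPM in sgMETTL1.3, 244 to 248 TPM in sgMETTL1.6 and 328 to 331 TPM in sgNS. Most of that sum was CD68, with a mean of 198 TPM, which fell over both guides (-0.37, limma adjusted p = 3.0e-07). FCGR1A, VCAN and ITGAM were also lower, CD33 was not called (0.0050, limma adjusted p = 0.92) and CD36 was higher (0.22, limma adjusted p = 0.016). Neutrophil markers summed to 35.5 to 36.0, 26.8 to 28.6 and 40.3 to 40.7 TPM in the same order of groups, with 5 of 7 at or under 0.1 TPM in every library; the sum rests on CSF3R, which fell over both guides (-0.62, limma adjusted p = 3.1e-07), and CXCR2, which rose (0.67, limma adjusted p = 1.1e-06). T and NK cell markers summed to 89.0 to 94.7, 92.7 to 96.5 and 113.7 to 123.9 TPM, nearly all of it NKG7, with 5 of 8 at or under 0.1 TPM. These 3 sums were highest in sgNS. Mast cell and basophil markers summed to 115.5 to 115.6, 71.4 to 77.5 and 82.3 to 91.4 TPM, and rest on the near-identical genes TPSAB1 and TPSB2. Eosinophil, B cell and erythroid lists each summed to under 3 TPM in every library. The part of these marker levels in the changes below was not tested, and in bulk RNA fewer cells of a type and less RNA per cell cannot be told apart.

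Promoters of 5 of the 10 genes were matched in the RefSeq promoter table used here (GRCh38.p14). Each line holds the 250 bases before the RefSeq start, read 5′ to 3′ on the strand of the gene. Capitals mark GAGGAA on either strand (TTCCTC where it reads backwards), the core of PU.1 sites, and TTNNGNAA on either strand, a loose form of the C/EBP site. The windows are chr19:840749-840998 (plus strand) for PRTN3, chr19:827587-827836 (plus) for AZU1, chr14:24576251-24576500 (minus) for CTSG, chr14:20955237-20955486 (plus) for RNASE2 and chr14:20891135-20891384 (plus) for RNASE3.
PRTN3: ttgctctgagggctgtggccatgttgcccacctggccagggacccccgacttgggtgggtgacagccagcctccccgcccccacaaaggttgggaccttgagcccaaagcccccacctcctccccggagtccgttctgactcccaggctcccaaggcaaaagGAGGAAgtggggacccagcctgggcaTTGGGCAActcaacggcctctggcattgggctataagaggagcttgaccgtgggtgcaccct
AZU1: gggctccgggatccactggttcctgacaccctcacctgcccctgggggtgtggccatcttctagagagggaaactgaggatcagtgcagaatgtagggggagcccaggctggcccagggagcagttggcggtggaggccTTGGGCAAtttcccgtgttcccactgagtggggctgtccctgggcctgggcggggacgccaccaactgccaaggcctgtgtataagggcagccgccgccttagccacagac
CTSG: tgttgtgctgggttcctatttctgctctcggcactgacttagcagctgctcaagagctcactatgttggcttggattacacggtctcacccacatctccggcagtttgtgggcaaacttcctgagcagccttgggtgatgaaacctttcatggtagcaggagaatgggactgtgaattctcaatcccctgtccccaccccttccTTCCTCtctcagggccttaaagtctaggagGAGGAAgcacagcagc
RNASE2: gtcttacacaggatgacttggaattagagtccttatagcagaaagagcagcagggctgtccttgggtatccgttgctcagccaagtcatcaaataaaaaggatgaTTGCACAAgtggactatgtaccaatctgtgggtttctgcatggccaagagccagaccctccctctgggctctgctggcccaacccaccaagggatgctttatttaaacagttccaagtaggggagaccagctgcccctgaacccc
RNASE3: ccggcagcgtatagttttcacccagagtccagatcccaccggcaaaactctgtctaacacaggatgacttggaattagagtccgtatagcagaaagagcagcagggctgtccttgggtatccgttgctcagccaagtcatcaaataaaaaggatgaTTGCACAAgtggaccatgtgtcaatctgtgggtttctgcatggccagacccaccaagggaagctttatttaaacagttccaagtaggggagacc
The PRTN3 window held GAGGAA at 88 to 83 bases and TTGGGCAA at 62 to 55 bases before the start. The window of its neighbour AZU1 held the same 8 letters, TTGGGCAA, at 111 to 104 bases and no GAGGAA. CTSG had TTCCTC at 46 to 41 and GAGGAA at 16 to 11 bases. RNASE2 and RNASE3 each held TTGCACAA, at 145 to 138 and at 94 to 87 bases, and their windows matched at 192 of 199 aligned bases (96.5%), where the other pairs of windows matched at 55% to 62.3% of aligned bases. Of all 35116 promoter windows of this length, 23.6% held GAGGAA, against 2 of these 5, and 33.2% held TTNNGNAA, against 4 of these 5. TGTGGT, the core bound by RUNX factors, and TAACNG, a form of the core bound by MYB, were also searched on both strands. They occurred in 0 of the 5 windows, against 11% and 17.6% of all windows. Forms of the MYB core that start with C, such as caacgg in the PRTN3 window, were not searched, so MYB cores were not fully counted. A match is a description of letters and not a bound site. No match of the 4 motifs overlapped another. The RefSeq start of AZU1 lies inside the gene as GENCODE 29 draws it, which begins farther upstream.

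The granule transcripts were among the most abundant in these cells. By mean TPM over all libraries LYZ ranked 3, CTSG 5, SRGN 12 and ELANE 51 of 18806 genes, followed by AZU1 (138), RNASE2 (151), PRTN3 (274), RNASE3 (511), CST7 (1187) and MPO (2513). The order was the same in every library, and neighbours in it did not overlap within any group. MPO, the peroxidase that defines the myeloid lineage in the clinic, was therefore the lowest of the set. AZU1 and RNASE2 lay close together, with 823 ± 45.0 and 746 ± 6.43 TPM in sgMETTL1.3, 872 ± 30.6 and 831 ± 11.4 TPM in sgMETTL1.6 and 935 ± 20.5 and 831 ± 21.1 TPM in sgNS (SD, n = 2 each).

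The summed level of the 10 transcripts hardly differed between groups. It was 29057 and 29680 TPM in the sgMETTL1.3 libraries, 29077 and 29069.7 TPM in the sgMETTL1.6 libraries and 29082 and 28666 TPM in the sgNS libraries. The groups overlapped, and the sum took 2.94% of all TPM in sgMETTL1.3, 2.91% in sgMETTL1.6 and 2.89% in sgNS. What changed was the makeup of the sum. LYZ took 36.7% of it in sgMETTL1.3, 32.4% in sgMETTL1.6 and 38.5% in sgNS, and CTSG took 25.1%, 29.7% and 26.0% in the same groups. PRTN3 took 2.10%, 1.51% and 1.11%, and CST7 took 0.315%, 0.441% and 0.702%. Ribosomal protein genes, which share the fixed total, took 19.9% and 20.1% of TPM in the sgMETTL1.3 libraries, 21.8% in both sgMETTL1.6 libraries and 22.8% and 22.4% in the sgNS libraries.

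**Figure D1:**
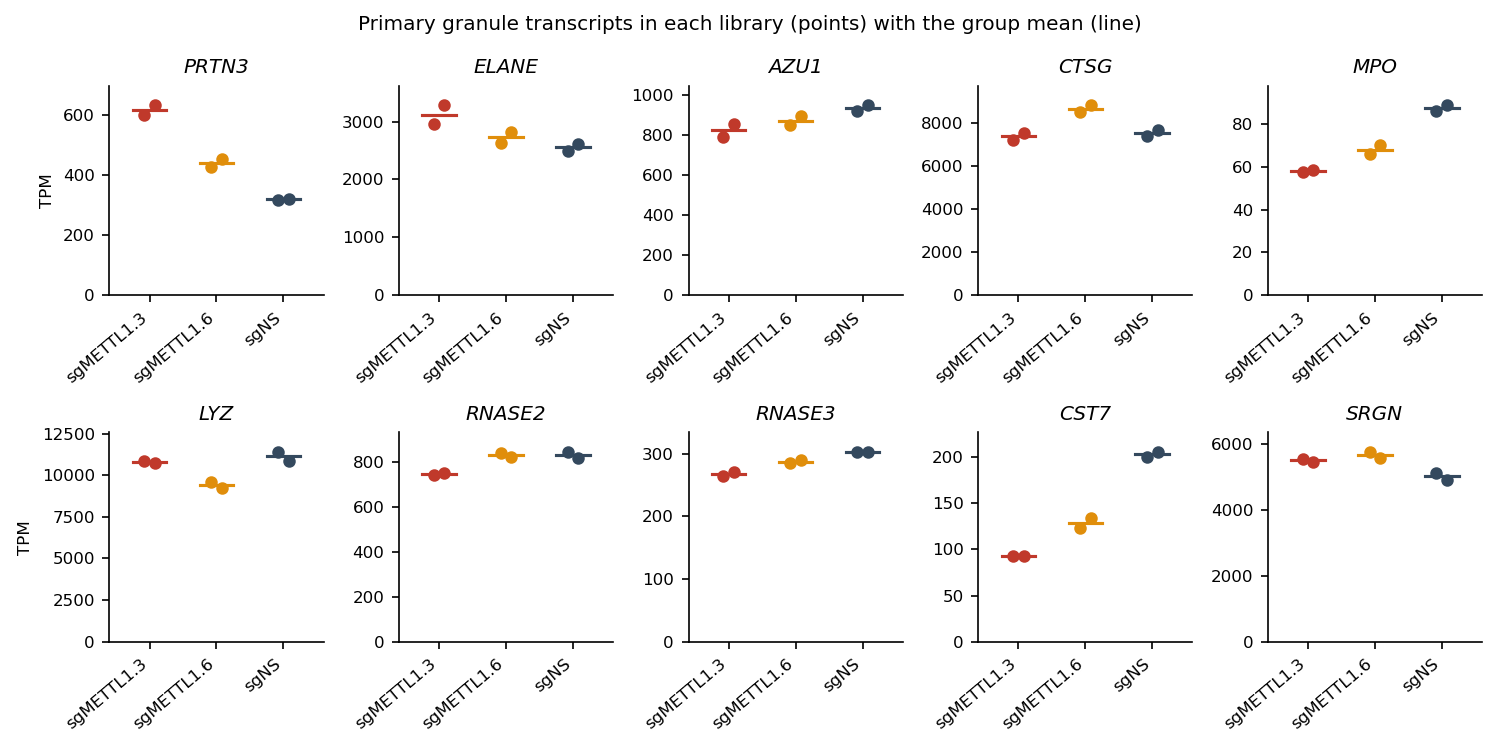
TPM of each of the 10 granule transcripts (vertical axes, linear and starting at 0) in the libraries of sgMETTL1.3, sgMETTL1.6 and sgNS, with points for libraries and lines for group means. PRTN3 steps down across the groups, with means of 617, 440.2 and 320.5 TPM, while CST7 and MPO step up, with CST7 means of 92.5, 128 and 203 TPM.

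Over both METTL1 guides against sgNS, the granule genes moved in opposite directions. The proteases PRTN3, ELANE and CTSG and the proteoglycan gene SRGN were higher, and MPO, CST7, LYZ, AZU1, RNASE2 and RNASE3 were lower. PRTN3 (log2 change 0.70) and CST7 (-0.89) moved most, MPO fell by 0.47, and the other 7 changed by less than 0.2 on the log2 scale. That made 4 higher, 6 lower and 0 not called at a limma adjusted p under 0.05, where 59.4% of all genes tested were called, 32.6% higher and 26.8% lower. Among the 3474 genes averaging 50 TPM or more, the range in which all 10 lie, 71.4% were called. The guide and control libraries did not overlap for 8 of the 10, against 60.2% of all genes tested. Their median log2 change was -0.10, against 0.02 over all genes, and their median absolute log2 change was 0.15, against 0.16, so that as a set they moved about as much as other genes. Fitting every row with no filter on low values left 1 of the 10 called higher (PRTN3) and 3 called lower (MPO, CST7 and RNASE3), while leaving out only the genes at 0 in every library, a setting chosen after seeing the data, gave 3 higher and 6 lower, without CTSG.

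PRTN3 encodes proteinase 3, the neutrophil and monocyte protease that is the autoantigen of granulomatosis with polyangiitis. It had 599.8 and 634 TPM in the sgMETTL1.3 libraries, 427 and 453 TPM in the sgMETTL1.6 libraries and 319 and 322 TPM in the sgNS libraries. The 3 groups were fully separate, with sgMETTL1.3 highest. The level was 1.92 times that of sgNS with sgMETTL1.3 (log2 change 0.94 ± 0.037, SE; limma adjusted p = 2.79e-10) and 1.37 times with sgMETTL1.6 (0.46 ± 0.037, limma adjusted p = 4.64e-07). Of 10911 genes, PRTN3 had the change of rank 85 from the top over both guides, rank 38 with sgMETTL1.3 and rank 346 with sgMETTL1.6.

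ELANE encodes neutrophil elastase, whose mutations cause severe congenital neutropenia. It had 2954 and 3285 TPM in the sgMETTL1.3 libraries, 2638 and 2828 TPM in the sgMETTL1.6 libraries and 2495 and 2612 TPM in the sgNS libraries. All guide libraries lay above both control libraries, the lowest of them by little, and the 2 sgMETTL1.3 libraries differed by 10.6%, the widest replicate gap of the set. With sgMETTL1.3 the log2 change was 0.29 (limma adjusted p = 1.12e-04). With sgMETTL1.6 it was 0.098, with a 95% interval of 0.0013 to 0.19, and was not called (limma adjusted p = 0.084). Leaving out sgMETTL1.6 replicate 1 (limma adjusted p = 0.016) or either sgMETTL1.3 library (0.031 for each), or quantile normalization (0.013), brought that second change past the threshold.

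AZU1 encodes azurocidin, a protease relative that has lost its catalytic activity and kills bacteria directly. Its TPM was 791 and 854 in the sgMETTL1.3 libraries, 851 and 894 in the sgMETTL1.6 libraries and 921 and 949.6 in the sgNS libraries. Both control libraries were above all 4 guide libraries, and the guides overlapped each other. The log2 change was -0.19 with sgMETTL1.3 (limma adjusted p = 9.6e-04) and -0.10 with sgMETTL1.6 (limma adjusted p = 0.041). The second call was lost without sgNS replicate 1 (limma adjusted p = 0.059), sgNS replicate 2 (0.21) or sgMETTL1.6 replicate 1 (0.23), with quantile normalization (0.063) or median-ratio scaling (0.086), and without the variance trend (0.18).

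CTSG encodes cathepsin G, the chymotrypsin-like protease of the granule. It had 7181 and 7537 TPM in the sgMETTL1.3 libraries, 8466 and 8811 TPM in the sgMETTL1.6 libraries and 7367 and 7635 TPM in the sgNS libraries. The sgMETTL1.6 libraries stood alone above the rest, and sgMETTL1.3 overlapped sgNS. With sgMETTL1.6 the log2 change was 0.20 ± 0.029 (SE; limma adjusted p = 7.07e-05), whereas with sgMETTL1.3 it was -0.028, with a 95% interval of -0.090 to 0.034 (limma adjusted p = 0.43), a sign that turned without sgMETTL1.3 replicate 1 (0.0072) and with quantile normalization (0.050). It was called lower without ribosomal protein genes (-0.075, limma adjusted p = 0.043). Over both guides the change of 0.088 was called (limma adjusted p = 0.0081), but not after median-ratio scaling (0.056), without ribosomal protein genes (0.069), without sgNS replicate 1 (0.12) or without the variance trend (0.12).

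AZU1, PRTN3 and ELANE sit side by side on the plus strand of chromosome 19, at chr19:825097-832018, chr19:840960-848175 and chr19:851014-856247 of GRCh38 (GENCODE 29), with gaps of 8941 and 2838 bases, while CTSG is on chromosome 14, at chr14:24573522-24576260 on the minus strand. The neighbours did not move alike. PLPPR3, which lies before AZU1 and encodes a phospholipid phosphatase-related membrane protein, had 188, 167 and 135 TPM in sgMETTL1.3, sgMETTL1.6 and sgNS and was higher over both guides (log2 change 0.39, limma adjusted p = 1.49e-06). AZU1, next in line, was lower, PRTN3 and ELANE were higher, and CFD, which follows ELANE and encodes complement factor D, had 120, 102 and 124 TPM and was lower over both guides (-0.15, limma adjusted p = 0.011). The ratio of PRTN3 to AZU1 was 0.758 and 0.742 in the sgMETTL1.3 libraries, 0.503 and 0.507 in the sgMETTL1.6 libraries and 0.346 and 0.339 in the sgNS libraries. The ratio of PRTN3 to ELANE was 0.203 and 0.193, then 0.162 and 0.160, then 0.128 and 0.123 in the same groups. Both ratios kept the 3 groups fully apart, with a gap between groups that was wider than the gap between replicates.

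**Figure D2:**
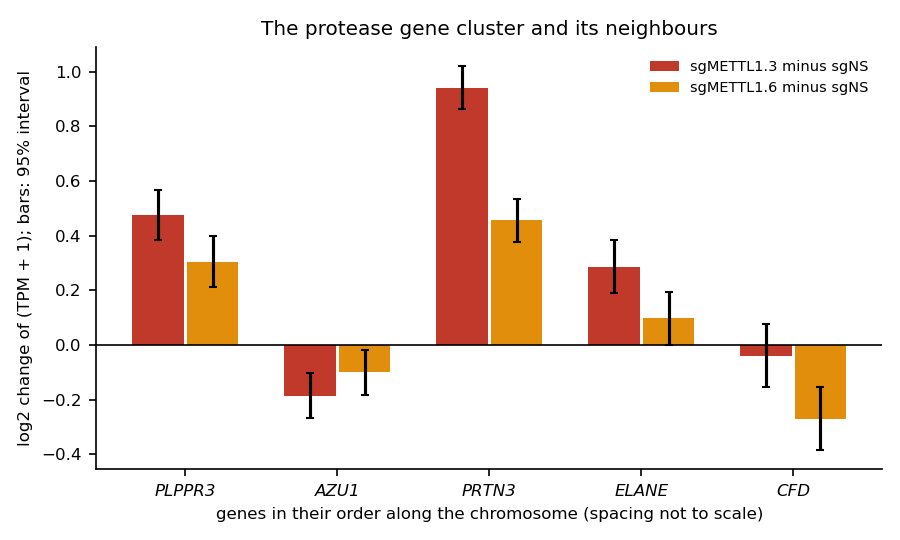
Log2 change of (TPM + 1) for the 3 clustered protease genes and the gene on either side, in chromosome order (horizontal axis, not to scale), for sgMETTL1.3 minus sgNS and sgMETTL1.6 minus sgNS, with 95% intervals from limma. PRTN3 rises most (0.94 and 0.46), AZU1 beside it falls (-0.19 and -0.10).

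MPO encodes myeloperoxidase, the heme enzyme that makes hypochlorous acid, at chr17:58269856-58280935 on the minus strand. It had 57.6 and 58.25 TPM in the sgMETTL1.3 libraries, 65.7 and 70.0 TPM in the sgMETTL1.6 libraries and 85.8 and 88.7 TPM in the sgNS libraries. The 3 groups did not overlap, with sgNS highest. MPO fell by 0.58 on the log2 scale with sgMETTL1.3 (limma adjusted p = 2.37e-07) and by 0.36 with sgMETTL1.6 (limma adjusted p = 2.47e-05). LPO, the lactoperoxidase gene next to it, 1337 bases away on the other strand, was much lower in level, with 1.17 ± 0.198 TPM in sgMETTL1.3, 0.735 ± 0.247 TPM in sgMETTL1.6 and 6.78 ± 0.559 TPM in sgNS (SD, n = 2 each). LPO passed the filter on low values only through sgNS, the group where it was high, and no test is read from it. TSPOAP1 on the other side of MPO changed by -0.05 over both guides and was not called (limma adjusted p = 0.32).

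LYZ encodes lysozyme, which cuts bacterial cell walls, at chr12:69348341-69354234 on the plus strand. It had 10827 and 10744 TPM in the sgMETTL1.3 libraries, 9619.5 and 9205.5 TPM in the sgMETTL1.6 libraries and 11419 and 10839 TPM in the sgNS libraries. The sgMETTL1.6 libraries were clearly lowest, and the sgMETTL1.3 libraries lay just under the lower control. With sgMETTL1.6 LYZ fell by 0.24 (± 0.028, SE; limma adjusted p = 1.14e-05), and with sgMETTL1.3 its change was -0.045, with a 95% interval of -0.10 to 0.015, and was not called (limma adjusted p = 0.18). That second change was called lower without sgNS replicate 2 (limma adjusted p = 0.032), after median-ratio scaling (0.047) or without ribosomal protein genes (0.017) and higher with quantile normalization (0.11, limma adjusted p = 5.1e-05), which sets a value by its rank and so cannot resolve a gene that ranked 2 or 3 in every library. With quantile normalization LYZ was also called higher over both guides (0.055, limma adjusted p = 0.0014) and changed by 0 with sgMETTL1.6.

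RNASE2 encodes the eosinophil-derived neurotoxin and RNASE3 the eosinophil cationic protein, ribonucleases that monocytic cells also make. They lie on the plus strand of chromosome 14, RNASE3 at chr14:20891399-20892348 and RNASE2 at chr14:20955452-20956436. RNASE2 had 742 and 751 TPM in the sgMETTL1.3 libraries, 839 and 823 TPM in the sgMETTL1.6 libraries and 846 and 816 TPM in the sgNS libraries. RNASE3 had 264 and 271 TPM, then 284 and 289.96 TPM, then 303 and 302 TPM in the same groups. The sgMETTL1.3 libraries were lowest for both genes, while sgMETTL1.6 overlapped sgNS for RNASE2 and lay between for RNASE3. With sgMETTL1.3 both fell, RNASE2 by 0.16 (limma adjusted p = 4.8e-04) and RNASE3 by 0.18 (limma adjusted p = 3.6e-04). With sgMETTL1.6 neither was called: RNASE2 changed by -0.0010, with a 95% interval of -0.064 to 0.062 (limma adjusted p = 0.98), and RNASE3 by -0.076, with an interval of -0.15 to -0.0066 (limma adjusted p = 0.064). The RNASE3 change with sgMETTL1.6 was called with quantile normalization (limma adjusted p = 0.035) or without ribosomal protein genes (0.032). The call of RNASE2 over both guides (-0.078, limma adjusted p = 0.016) was lost without sgNS replicate 1 (0.22) or without the variance trend (0.12).

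The ratio of RNASE3 to RNASE2 was 0.355 and 0.361 in sgMETTL1.3, 0.339 and 0.352 in sgMETTL1.6 and 0.358 and 0.370 in sgNS. The sgMETTL1.3 and sgNS libraries overlapped for this ratio, and both sgMETTL1.6 libraries lay just below all others. These genes are recent duplicates, and 21 of the 706 stretches of 50 bases in RNASE2 transcripts (2.97%) also occur in RNASE3, so reads from them can be shared between the copies. Such stretches also occur in some other gene for 8.23% of LYZ and 4.66% of AZU1, and for 0% of MPO, PRTN3, ELANE, CTSG, CST7 and SRGN. The eosinophil markers summed to 0.27 to 0.71 TPM in sgMETTL1.3, 0.40 to 0.49 TPM in sgMETTL1.6 and 0.50 to 0.86 TPM in sgNS, with 4 of 6 at or under 0.1 TPM in every library. Among 11 other RNase A family genes, RNASE6 was the only one above 2 TPM in mean level, with 80.1, 88.9 and 104 TPM in sgMETTL1.3, sgMETTL1.6 and sgNS (log2 change -0.31, limma adjusted p = 6.6e-06). RNASE1 also passed the filter on low values, but only through the groups where it was higher, and no count is read from it.

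CST7 encodes cystatin F, an inhibitor of cysteine cathepsins that acts inside granules and limits cathepsin C, the activator of the serine proteases. The gene is at chr20:24949230-24959928 on the plus strand. It had 92.8 and 92.25 TPM in the sgMETTL1.3 libraries, 123 and 134 TPM in the sgMETTL1.6 libraries and 199.8 and 206 TPM in the sgNS libraries. The 3 groups were fully separate, with both guides well under sgNS. CST7 fell by 1.12 on the log2 scale with sgMETTL1.3 (± 0.044, SE; limma adjusted p = 2.76e-10) and by 0.66 with sgMETTL1.6 (limma adjusted p = 6.94e-08). Its change over both guides ranked 195 from the lowest of 10911 genes.

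CTSC, the gene of cathepsin C, went the other way, with 358 ± 4.76 TPM in sgMETTL1.3, 342 ± 5.32 TPM in sgMETTL1.6 and 279.8 ± 2.95 TPM in sgNS (SD, n = 2 each; log2 change over both guides 0.32, limma adjusted p = 4.69e-07). The ratio of CST7 to CTSC was 0.257 and 0.260 in the sgMETTL1.3 libraries, 0.355 and 0.396 in the sgMETTL1.6 libraries and 0.709 and 0.740 in the sgNS libraries. The guide libraries and the control libraries stood far apart for this ratio. Of 14 tested cysteine cathepsins and cystatins, 3 were higher and 5 lower over both guides, where 59.4% of all genes tested were called. CSTA, the cytosolic inhibitor stefin A, fell by 1.25 (limma adjusted p = 3.25e-11), with 125 ± 10.0 TPM in sgMETTL1.3, 156 ± 1.96 TPM in sgMETTL1.6 and 333 ± 2.81 TPM in sgNS (SD, n = 2 each). CSTB, which encodes the related stefin B, rose by 0.45 (limma adjusted p = 2.70e-08).

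SRGN encodes serglycin, the proteoglycan core on which granule proteases are stored, at chr10:69088106-69104811 on the plus strand. It had 5549 and 5453 TPM in the sgMETTL1.3 libraries, 5764 and 5562 TPM in the sgMETTL1.6 libraries and 5127 and 4895 TPM in the sgNS libraries. All 4 guide libraries were above both controls, and the guides lay close together. The log2 change was 0.13 with sgMETTL1.3 (limma adjusted p = 8.7e-04) and 0.18 with sgMETTL1.6 (limma adjusted p = 1.41e-04). Of 12 tested genes that build glycosaminoglycan chains on such cores, 3 were higher and 4 lower over both guides. The share called among all genes tested was 59.4%. The lowest p-values were those of CSGALNACT2 (fell by 0.62, limma adjusted p = 8.2e-08), XYLT1, which starts the chain (fell by 0.33, limma adjusted p = 1.06e-04) and CHSY1 (fell by 0.20, limma adjusted p = 1.43e-04).

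Taken guide by guide, 3 of the 10 genes were called higher with sgMETTL1.3 (PRTN3, ELANE and SRGN), 5 lower (MPO, CST7, AZU1, RNASE2 and RNASE3) and 2 not called, where 58.5% of all genes tested were called, 34.3% higher and 24.2% lower, and 70.4% of those averaging 50 TPM or more. For 9 of the 10 the sgMETTL1.3 and sgNS libraries did not overlap, against 79.9% of all genes. With sgMETTL1.6, 3 were higher (PRTN3, CTSG and SRGN), 4 lower (MPO, CST7, AZU1 and LYZ) and 3 not called, where 51.0% of all genes were called, 25.7% higher and 25.3% lower, and 64.2% of those averaging 50 TPM or more. For 9 of the 10 the sgMETTL1.6 and sgNS libraries did not overlap, against 74.8% of all genes. With quantile normalization the sgMETTL1.6 count was 4 higher and 3 lower. Both comparisons use the same control libraries. PRTN3, MPO and CST7 kept their direction and their call against sgNS under all 16 alternative settings, for each guide and for both.

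**Figure D3:**
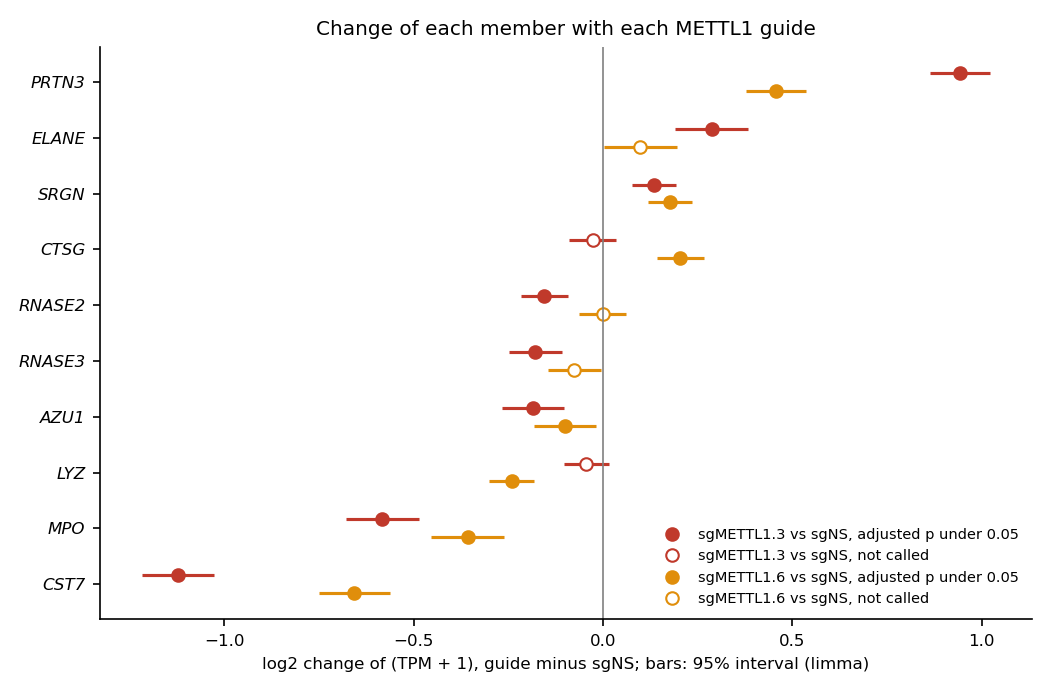
Log2 change of (TPM + 1) of each granule gene (rows) for sgMETTL1.3 minus sgNS and sgMETTL1.6 minus sgNS, with 95% intervals from limma; filled points had an adjusted p under 0.05. The span runs from 0.94 for PRTN3 to -1.12 for CST7 with sgMETTL1.3, and 5 genes have an open point for one of the guides.

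Tested directly against each other, the guides differed for 8 of the 10 granule genes. With sgMETTL1.6 the levels of MPO, CST7, CTSG, RNASE2 and RNASE3 were higher than with sgMETTL1.3, and those of PRTN3, ELANE and LYZ were lower. That is 5 higher, 3 lower and 2 not called, where 23.0% of all genes tested were called, 7.23% higher and 15.8% lower, and 31.5% of the genes averaging 50 TPM or more. The guides did not overlap for 9 of the 10, against 62.5% of all genes tested. The split over all genes depended on the scaling, with 789 higher and 1721 lower as deposited, 1118 and 781 after median-ratio scaling, 974 and 803 after quantile normalization, and 932 and 967 without ribosomal protein genes. The count among the 10 genes stayed at 5 higher under these 3 scalings, with 2, 3 and 3 lower.

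PRTN3 averaged 440.2 ± 17.99 TPM with sgMETTL1.6 and 617 ± 23.9 TPM with sgMETTL1.3 (SD, n = 2 each; log2 difference -0.49 ± 0.037, limma adjusted p = 3.04e-06). CST7 averaged 128 ± 7.89 TPM with sgMETTL1.6 and 92.5 ± 0.396 TPM with sgMETTL1.3 (0.47, limma adjusted p = 1.79e-05). For both, and for MPO (0.22, limma adjusted p = 0.0044), sgMETTL1.6 lay between sgMETTL1.3 and sgNS. CTSG and LYZ had another order. CTSG averaged 8638 ± 244 TPM with sgMETTL1.6 and 7359 ± 252 TPM with sgMETTL1.3 (0.23, limma adjusted p = 1.80e-04), and LYZ averaged 9413 ± 293 TPM and 10786 ± 58.2 TPM (-0.20, limma adjusted p = 4.62e-04), so that for these the sgMETTL1.6 libraries stood apart from both other groups.

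ELANE (-0.19, limma adjusted p = 0.010) and RNASE2 (0.15, limma adjusted p = 0.0031) also differed between the guides. The ELANE difference was not called without sgMETTL1.3 replicate 2 (limma adjusted p = 0.10) or sgMETTL1.6 replicate 1 (0.058), after median-ratio scaling (0.083) or without the variance trend (0.098). Without that trend the RNASE2 difference was not called either (limma adjusted p = 0.061). The RNASE3 difference (0.10, limma adjusted p = 0.037) was not called in any of the 6 fits that left out 1 library (limma adjusted p = 0.057 to 0.21). SRGN differed by 0.042, with a 95% interval of -0.017 to 0.10 (limma adjusted p = 0.28), and AZU1 by 0.085, with an interval of 0.0030 to 0.17 (limma adjusted p = 0.12), which was called without sgMETTL1.3 replicate 2 (0.044).

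The rest of the granule and its machinery was read from lists of related genes, whose counts are to be read against the 59.4% of all genes called over both guides and say nothing particular to a list. Of 7 other primary granule genes, 2 passed the filter, and both were lower over both guides. CD63, the tetraspanin of the granule membrane, had 649, 673 and 729.9 TPM in sgMETTL1.3, sgMETTL1.6 and sgNS (log2 change -0.14, limma adjusted p = 2.1e-04). PRSS57, a further serine protease of the granule, had 87.7 ± 5.06, 119 ± 5.44 and 118 ± 5.37 TPM (SD, n = 2 each), with a change of -0.42 with sgMETTL1.3 (limma adjusted p = 1.27e-05) and 0.02 with sgMETTL1.6 (limma adjusted p = 0.75). The defensin genes DEFA1, DEFA1B and DEFA3 were listed at 0 in every library, and BPI and DEFA4 were under 1 TPM. Among 19 genes of the later, specific and gelatinase granules 5 passed the filter, of which 1 was higher, HP (haptoglobin), with 20.0, 11.8 and 8.92 TPM (0.73, limma adjusted p = 2.2e-07), and 0 were lower.

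Of 17 tested genes for the folding, activation and sorting of granule proteases, 8 were higher and 3 lower over both guides, and 11 of 17 called is near the 59.4% of all genes and 71.4% of genes averaging 50 TPM or more. CALR, an endoplasmic reticulum chaperone of glycoproteins, had 2792 ± 17.7, 2717 ± 50.3 and 2125 ± 57.1 TPM in sgMETTL1.3, sgMETTL1.6 and sgNS (SD, n = 2 each; log2 change 0.37, limma adjusted p = 2.24e-08). HSPA5, the lumenal HSP70 chaperone, rose by 0.38 (limma adjusted p = 6.0e-08), and CTSC has been given above. The 14 hydrolases of granules and lysosomes split into 5 higher, led by FUCA1 (0.52, limma adjusted p = 1.53e-08), GLA (0.46, limma adjusted p = 8.2e-07) and ARSB (0.42, limma adjusted p = 8.5e-07), and 6 lower. Of 7 tested inhibitors of serine proteases and ribonucleases, 2 were higher and 2 lower. SERPINB6 was lower (fell by 0.46, limma adjusted p = 5.6e-07), SERPINB8 was higher (0.38, limma adjusted p = 1.18e-06), and SERPINB10 was higher at a low level (0.74, limma adjusted p = 2.69e-06).

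Of 14 tested transcription factors of the granule programme, 3 were higher and 7 lower over both guides, and 10 of 14 called is again near the 59.4% of all genes and 71.4% of the more abundant genes. CEBPB, a C/EBP factor of monocytic differentiation, had 31.3 ± 0.49 TPM in sgMETTL1.3, 22.0 ± 1.07 TPM in sgMETTL1.6 and 99.6 ± 3.20 TPM in sgNS (SD, n = 2 each). It fell by 1.89 on the log2 scale (limma adjusted p = 1.05e-12), further than any of the granule genes. Of the other C/EBP genes in the list, CEBPA was higher (0.29, limma adjusted p = 1.8e-05). CEBPD (-0.17, limma adjusted p = 0.0092) and the low CEBPE (-0.51, limma adjusted p = 8.6e-04) were lower. SPI1, the gene of PU.1, was higher over both guides (0.20, limma adjusted p = 3.3e-04) but not called with sgMETTL1.6 (0.088, limma adjusted p = 0.094). KLF4, a monocytic factor, fell by 0.43 (limma adjusted p = 3.6e-06). IRF8, which directs progenitors towards monocytes, had 241 ± 0.92, 196 ± 0.86 and 136 ± 0.81 TPM in the same groups and rose by 0.67 (limma adjusted p = 5.7e-10).

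Of 7 tested enzymes that make heme, the cofactor of myeloperoxidase, 2 were higher and 2 lower over both guides, again near the share over all genes. Among the lower ones was PPOX (fell by 0.44, limma adjusted p = 4.0e-04). Of 5 tested subunits of the NADPH oxidase, which supplies peroxide to myeloperoxidase, 0 were higher and 2 lower over both guides. CYBB fell by 0.31 (limma adjusted p = 9.0e-05). Its change was -0.50 with sgMETTL1.6 (limma adjusted p = 6.7e-06) and was not called with sgMETTL1.3 (-0.11, limma adjusted p = 0.089). NCF1 fell by 0.76 (limma adjusted p = 2.3e-09), a value that is uncertain because NCF1 has near-identical pseudogene copies.

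**Figure D4:**
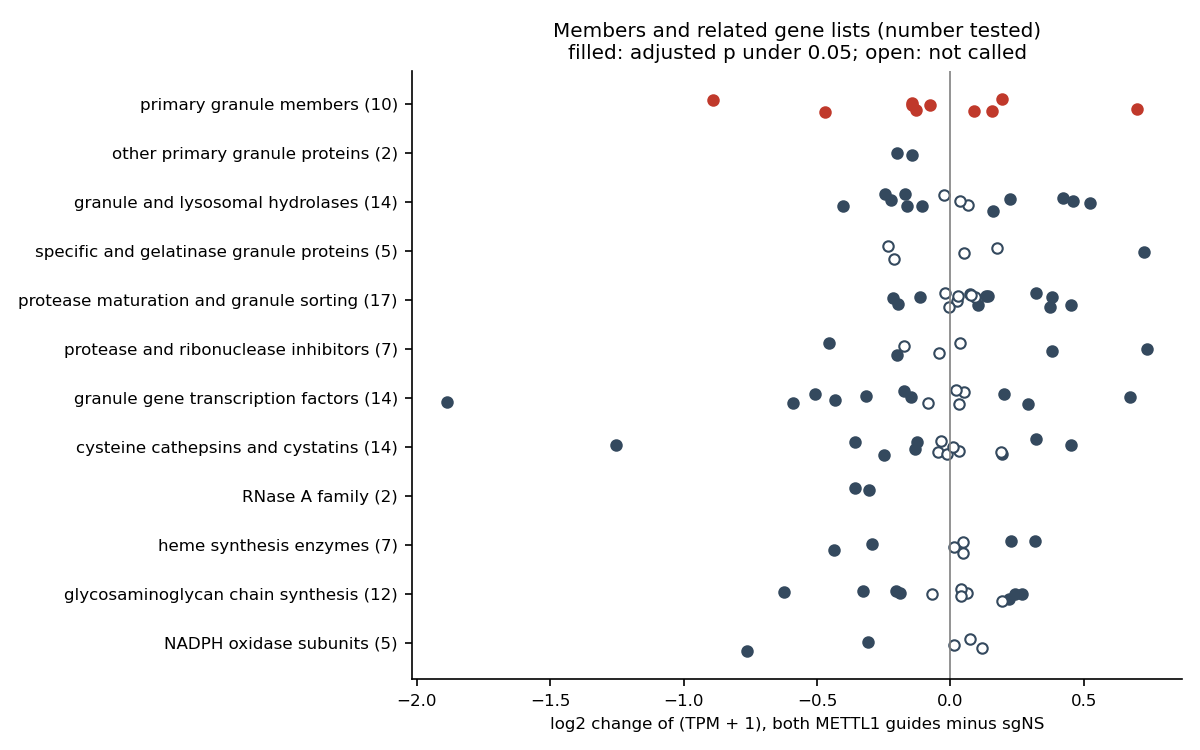
Log2 change of (TPM + 1) over both METTL1 guides minus sgNS (horizontal axis) for the 10 granule genes (top row, red) and the tested genes of 11 related lists, 1 point a gene, filled where the adjusted p was under 0.05; vertical scatter has no meaning. Points lie on both sides of 0 in most rows, and CEBPB (-1.89) and CSTA (-1.25) lie farthest to the left.

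Genes whose pattern over the 6 libraries came closest to the 3 granule genes with a change of at least 0.3 were sought by the root mean square difference of centred log2(TPM + 1). MPO was followed most closely by CSAD (0.018) and MAGEF1 (0.029), PRTN3 by TTYH2 (0.032) and EMP2 (0.045), and CST7 by XBP1 (0.047) and HRC (0.064). XBP1, a transcription factor of secretory cells, had 256, 346 and 538 TPM in sgMETTL1.3, sgMETTL1.6 and sgNS. TTYH2 and EMP2, with group means of 4.36 to 8.82 and 5.35 to 10.7 TPM, were far below PRTN3 in level.

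The genes beside the remaining members gave no shared direction. YEATS4, after LYZ, fell by 0.43 (limma adjusted p = 9.0e-06) and CPSF6, before it, changed by 0.07 (limma adjusted p = 0.14). DDX21, before SRGN, rose by 0.18 (limma adjusted p = 2.6e-04), as SRGN did, and VPS26A, after it, changed by -0.0014 (limma adjusted p = 0.98). APMAP, after CST7, changed by 0.03 (limma adjusted p = 0.51), and METTL17, after RNASE2, by -0.02 (limma adjusted p = 0.66). RNASE1, before RNASE3, lay at about 1 TPM. It passed the filter only through the groups where it was higher, and no change is read from it. CMA1 and GZMH beside CTSG were under 1 TPM, and SYNDIG1 before CST7 was listed at 0.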

How the data were processed

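Poly(A)-selected RNA was sequenced from 6 libraries, and the authors deposited 1 table of TPM for 18806 gene symbols. The submitters' processing notes name RSEM 1.2.31 and GRCh38. Aligner and annotation: not given in the sources used here. RSEM divides reads among similar transcripts by estimation, and a fixed total per library means that abundant genes shift the rest. Columns were matched to samples by name; every name also holds the letters EV, which the labels do not explain.

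In R 4.3.3 with limma 3.58.1, log2(TPM + 1) of the 10911 genes averaging 1 TPM or more entered 1 fit of 3 group means, with empirical Bayes moderation that follows mean level (residual degrees of freedom 3, prior 9.84). Contrasts were both guides, and each guide, minus sgNS, and sgMETTL1.6 minus sgMETTL1.3. P-values were adjusted over all genes by Benjamini-Hochberg and called under 0.05. Log2 changes refer to TPM + 1, so those of low genes are understated. METTL1 alone was also tested by exact permutation. The fit was tested on simulated data. Shared stretches of 50 bases and positions came from GENCODE 29, promoters from RefSeq.

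The text names the 10 members, the 3 tested genes with the lowest p of each related list, the highest genes of each marker list, the 2 genes most like each member that changed by at least 0.3, the nearest protein-coding genes, and METTL1; others in the lists (such as CD14, CSF1R and the defensins) were named after their values were seen. A gene that this rule would name is not reported here. Members and lists were chosen with earlier results of these data known. The 16 alternatives covered the pseudocount (0.1 and 5), the filter, the scaling, the trend, a replicate block and leaving out each library; the filter that drops only genes at 0 everywhere was chosen after seeing the data.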

Additional observations from a re-analysis of the deposited data

Results flagged for a closer look

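For 8 of the 10 granule genes the effect of the 2 METTL1 guides differed, by the direct limma contrast of sgMETTL1.6 minus sgMETTL1.3. The log2 difference was 0.22 for MPO, -0.49 for PRTN3, -0.19 for ELANE, 0.23 for CTSG, -0.20 for LYZ, 0.15 for RNASE2, 0.10 for RNASE3 and 0.47 for CST7. In that contrast 23.0% of all genes tested were called, and 31.5% of those averaging 50 TPM or more, the range in which all 10 lie. The ELANE and RNASE3 calls depended on the settings, as given above. PRTN3 and CST7 moved the same way with both guides. METTL1 mRNA also differed between the guides, with 11.2 and 11.7 TPM in the sgMETTL1.6 libraries and 18.3 and 16.6 TPM in the libraries labelled sgMETTL1.3.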

How the results depend on the processing

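PRTN3, MPO and CST7 kept direction and call against sgNS under all 16 alternatives. With no filter on low values, members called were 1 higher and 3 lower over both guides, 1 higher with sgMETTL1.3, 1 higher and 2 lower with sgMETTL1.6, and 0 higher and 1 lower for sgMETTL1.6 minus sgMETTL1.3; without the variance trend that last contrast had 3 higher. With only the genes at 0 in every library left out, the 4 contrasts had 3 higher and 6 lower, 3 and 5, 3 and 3, and 4 and 1. The granule total was 28699 TPM for sgMETTL1.3 and 29377 TPM for sgMETTL1.6 after median-ratio scaling, and 36710.0, 37188 and 37297 TPM for sgMETTL1.3, sgMETTL1.6 and sgNS without ribosomal protein genes, which enlarges every other value. Signs turned with quantile normalization for LYZ over both guides (0.055) and with sgMETTL1.3 (0.11), CTSG with sgMETTL1.3 (0.050) and APMAP (-0.015, and -0.0037 without ribosomal protein genes), and with median-ratio scaling for RNASE2 with sgMETTL1.6 (0.0060). Leaving out 1 library turned log2 changes near 0, with ranges of -0.063 to 0.0072 for CTSG with sgMETTL1.3, -0.027 to 0.025 for RNASE2 with sgMETTL1.6, and over both guides -0.12 to 0.022 for METTL1, -0.043 to 0.0030 for METTL17, -0.097 to 0.0032 for TSPOAP1 and -0.032 to 0.030 for VPS26A; RNASE2 also gave 0.013 and VPS26A 0.0049. The cause was not tested. Scalings moved the median of all genes by under 0.1 (log2).

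Over all genes, the sgMETTL1.6 count of higher genes was 2801 and 1759 with no filter. For sgMETTL1.6 minus sgMETTL1.3 the counts were 789 higher and 1721 lower, against 112 and 255 with no filter, 332 and 691 with only genes at 0 left out, 459 and 950 without the trend, and as few as 430 and 784 without 1 library (sgMETTL1.3 replicate 2).

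The main fit did not pair libraries by replicate number. Differences of replicate 2 minus replicate 1 correlated across 10911 genes at 0.15 (sgMETTL1.3 and sgMETTL1.6), -0.0050 (sgMETTL1.3 and sgNS) and 0.21 (sgMETTL1.6 and sgNS). Their sign was the same in all 3 groups for 39.2% of these genes. Whether libraries of the same number share a batch was not tested. With a replicate block, 4 members were higher and 6 lower over both guides. Calls were gained for ELANE with sgMETTL1.6 (0.098, limma adjusted p = 0.0032), RNASE3 lower with sgMETTL1.6 (0.020) and AZU1 between the guides (0.015). Calls over all genes rose as well. Over both guides they went from 3556 to 3825 higher and from 2928 to 3151 lower. With sgMETTL1.6 they went from 2801 to 3138 and from 2762 to 3037, and between the guides from 789 to 1103 and from 1721 to 2512. Depth is unknown, so what it limits cannot be stated.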

Other observations

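The libraries numbered 2 were higher than those numbered 1 in all 3 groups for PRTN3, ELANE, AZU1, CTSG and MPO, and lower in all 3 groups for LYZ and SRGN. ELANE was higher by 0.15 in sgMETTL1.3, 0.10 in sgMETTL1.6 and 0.066 in sgNS (log2, replicate 2 minus replicate 1). CTSG was higher by 0.070, 0.058 and 0.052 in the same groups. SRGN gave -0.025, -0.051 and -0.067. The sign was the same in all 3 groups for 7 of the 10 granule genes, against 47.5% of the 3474 genes averaging 50 TPM or more and 39.2% of all 10911 genes tested. The labels do not say what a shared number means.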
